A study of Danio rerio with 30 samples.

Results

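MHC class II and its invariant chain were followed through 5 gene names: cd74a and cd74b, the zebrafish copies of the invariant chain, mhc2a and mhc2dab, named as class II chains, and ciita, the class II transactivator. They were chosen by name, or for cd74a by its Ensembl ID, with earlier results of these data known. Of the 5 names, 4 matched a row among 31901 genes, and these 4 were among the 17841 genes that passed the filter on low counts. No row was matched to mhc2a. A further 15 rows carried a name beginning with mhc2, and 7 of them passed the filter. Among these, mhc2daa, an alpha chain by its name, was described beside the 4 members.

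MHC class II molecules are pairs of an alpha and a beta chain that show peptides from engulfed material to CD4 T cells. The invariant chain CD74 binds new class II molecules in the endoplasmic reticulum, fills their groove and steers them to endosomes, where proteases degrade it. CIITA does not bind DNA itself. In mammals it is recruited to class II and invariant chain promoters by the RFX, NF-Y and CREB proteins, and macrophages, dendritic cells and B cells, all present in spleen, are the main cells that make class II.

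RNA of the spleen was sequenced in AB strain zebrafish of 100 days, 5 fish in each of 6 groups. As embryos and larvae the fish had been incubated at 24, 28 or 32 °C, and all were kept at 28 °C as adults. At each incubation temperature 5 fish were controls and 5 had received lipopolysaccharide (LPS), a cell wall component of Gram-negative bacteria, of Pseudomonas aeruginosa origin. A volume of 2 µl of LPS at 50 mg/ml was placed in the body cavity, 12 h before sampling. The labels do not say what control fish received, nor the sex or the hour of sampling. That each sample is a separate fish is read from the replicate numbers of the labels, and a p-value speaks of the spread among samples, which may be technical in part.

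Library totals ran from 14840723 to 23401031 counts. The spleen label was checked against TLX1 (ENSDARG00000003965), a transcription factor of spleen development, which lay between 86.3 and 286 CPM, the usual count scaled to library size (here by TMM), and marco, a scavenger receptor of macrophages, which lay between 1029 and 3485 CPM. No library was at 0 for these, for hbaa1, or for the B cell genes ighm, cd79a, cd79b and PAX5. A total of 3 control libraries stood apart, by ovary markers, liver markers or the number of genes with a count. Sums of marker lists, here and below, are CPM without TMM. In 24 °C control replicate 4, ovary markers summed to 10263 CPM, in 32 °C control replicate 8 liver markers summed to 6399 CPM, and 32 °C control replicate 2 had 28134 genes with a count against 19367 to 22887 in the others. Results that rest on these 3 libraries are also given without them.

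The invariant chain genes had their highest levels in 32 °C controls and their lowest in 28 °C controls. CPM of cd74a (ENSDARG00000009087) in the 28 °C controls were 316, 362, 164, 216 and 218, and in the 28 °C LPS fish 835, 586, 623, 434 and 665. In the 32 °C controls they were 1163, 1245, 506, 2788 and 866, and in the 32 °C LPS fish 346, 414, 429, 409 and 248. In the 24 °C controls they were 462, 841, 251, 643 and 255, and in the 24 °C LPS fish 275, 192, 483, 368 and 213. LPS fish therefore lay above every control at 28 °C and below every control at 32 °C, and the groups overlapped at 24 °C. The highest value belonged to 32 °C control replicate 8, the library with liver markers.

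For cd74b (ENSDARG00000036628), the second invariant chain copy, the 28 °C controls were at 198, 243, 117, 118 and 126 CPM and the 28 °C LPS fish at 497, 370, 386, 261 and 338. The 32 °C controls were at 728, 670, 264, 1188 and 479 CPM and the 32 °C LPS fish at 182, 327, 241, 254 and 182. The 24 °C controls were at 316, 488, 168, 421 and 146 CPM and the 24 °C LPS fish at 183, 152, 361, 263 and 205. The 28 °C groups did not overlap, and the highest 32 °C LPS fish lay above the lowest 32 °C control.

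For ciita (ENSDARG00000090851) the 28 °C controls were at 13.6, 11.6, 14.3, 9.47 and 17.0 CPM and the 28 °C LPS fish at 34.2, 28.3, 24.2, 36.2 and 26.5. The 32 °C controls were at 34.3, 57.9, 17.2, 69.8 and 23.4 CPM and the 32 °C LPS fish at 16.1, 13.1, 17.1, 38.5 and 30.9. The 24 °C controls were at 19.3, 27.4, 15.6, 26.7 and 15.9 CPM and the 24 °C LPS fish at 7.85, 17.5, 17.9, 16.2 and 12.1. The transactivator was thus higher in every LPS fish than in every control at 28 °C, with overlapping groups at the other temperatures.

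The alpha chain mhc2daa (ENSDARG00000031745) was at 170, 152, 51.8, 91.7 and 41.0 CPM in 28 °C controls and at 451, 391, 397, 132 and 196 in 28 °C LPS fish. In 32 °C controls it was at 654, 505, 167, 760 and 394 CPM, and in 32 °C LPS fish at 90.9, 241, 252.1, 199.9 and 273. The 24 °C controls were at 299, 305, 150.1, 378 and 209 CPM and the 24 °C LPS fish at 179, 137, 217, 272 and 155. Its groups overlapped at every temperature.

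**Figure D1:**
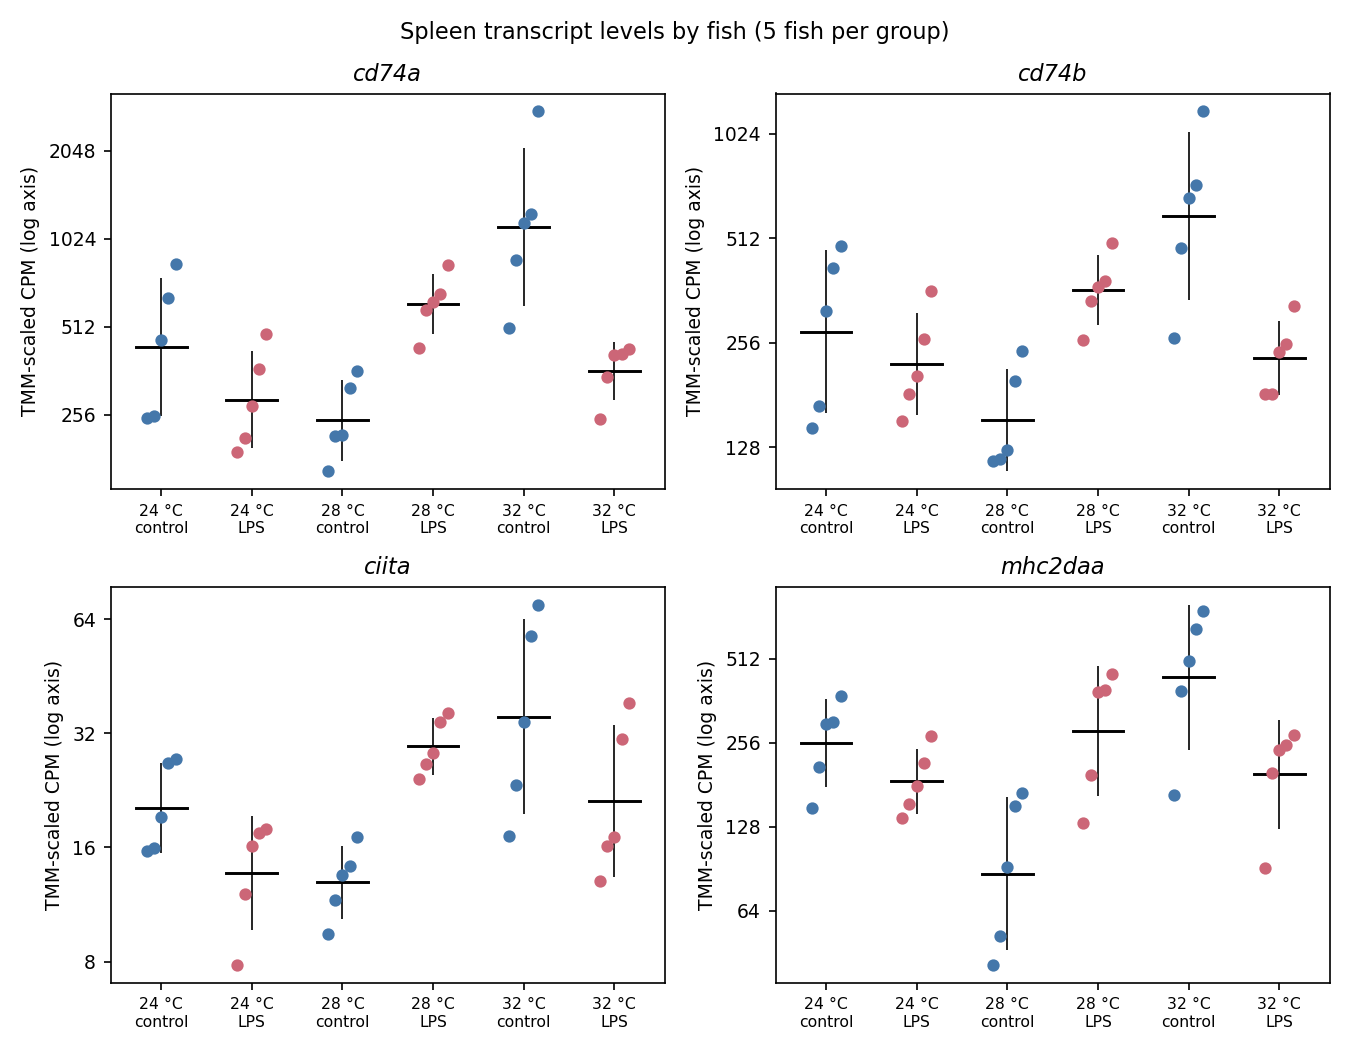
TMM-scaled CPM (log axis) of cd74a, cd74b, ciita and mhc2daa in each of 30 spleens, by incubation temperature and treatment, with blue points for controls and red points for LPS fish. Horizontal lines are the means on the log scale and vertical lines their SD over 5 fish. The 28 °C LPS fish lie above the 28 °C controls for cd74a, cd74b and ciita, and 32 °C controls hold the highest fish in all 4 panels.

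Ordered by group mean, cd74a was at 1314 ± 874 CPM in 32 °C controls (SD, n = 5 in each group), 629 ± 144 in 28 °C LPS fish, 490 ± 255 in 24 °C controls, 369 ± 74.8 in 32 °C LPS fish, 306 ± 120 in 24 °C LPS fish and 255 ± 80.9 in 28 °C controls. The order of cd74b was the same, from 666 ± 344 to 160 ± 57.2 CPM, and so was that of mhc2daa, from 496 ± 231 to 101.2 ± 57.8 CPM. For ciita, 32 °C LPS fish (23.1 ± 10.99 CPM) came before 24 °C controls (21.0 ± 5.73 CPM). Every pair of neighbours in these orders overlapped. All 4 genes were highest in 32 °C controls and lowest in 28 °C controls, and 28 °C LPS fish came second.

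The beta chain row mhc2dab (ENSDARG00000079105) varied far more between fish of the same group. In 28 °C controls it was at 163, 0.151, 28.9, 107 and 16.2 CPM, and in 28 °C LPS fish at 487, 264, 20.3, 48.3 and 41.6. In 32 °C controls it was at 576, 542, 166, 1048 and 104 CPM, and in 32 °C LPS fish at 15.4, 20.3, 180.5, 8.05 and 416. In 24 °C controls it was at 83.8, 195, 10.99, 20.7 and 127 CPM, and in 24 °C LPS fish at 128, 6.30, 262, 17.1 and 33.2. All 5 of the 32 °C controls were above 100 CPM, and each other group held fish both below 50 and above 100 CPM. The SD within groups on the log2 scale was 2.35 for mhc2dab, against 0.60 for cd74a, 0.57 for cd74b, 0.54 for ciita and 0.71 for mhc2daa. Its highest fish was 6958 times its lowest, against 17.0 times for cd74a, 10.2 times for cd74b and 8.89 times for ciita. In counts, mhc2dab ran from 4 to 18145 per library (cd74a from 3787 to 48256, cd74b from 2087 to 20560 and ciita from 167 to 1208).

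Other class II rows also split the fish. The row mhc2dga was at 12.4 to 81.4 CPM in 12 of the 30 fish, and at 0.238 CPM or less in the other 18, with no count in 16 of these. A count of 0 allows up to 3 counts, which is 0.128 to 0.202 CPM in these libraries (counting error only). The row mhc2dgb followed the same fish, at 18.5 to 62.7 CPM in the 12 and 0 to 1.90 CPM in the 18. In the 12 fish mhc2dhb, another beta row, had a median of 192 CPM against 36.1 CPM in the 18, and mhc2dab a median of 18.7 against 145 CPM. These are fish divided by a measured row, given as a description with no test. The 12 fish were 2 of 5 in 24 °C controls, 2 in 24 °C LPS, 1 in 28 °C controls, 3 in 28 °C LPS, 1 in 32 °C controls and 3 in 32 °C LPS fish. Class II copies are similar in sequence and the way shared reads were counted is not given, so the split of reads between these rows is uncertain. The 8 other rows that did not pass the filter were below 1 CPM in every library.

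**Figure D2:**
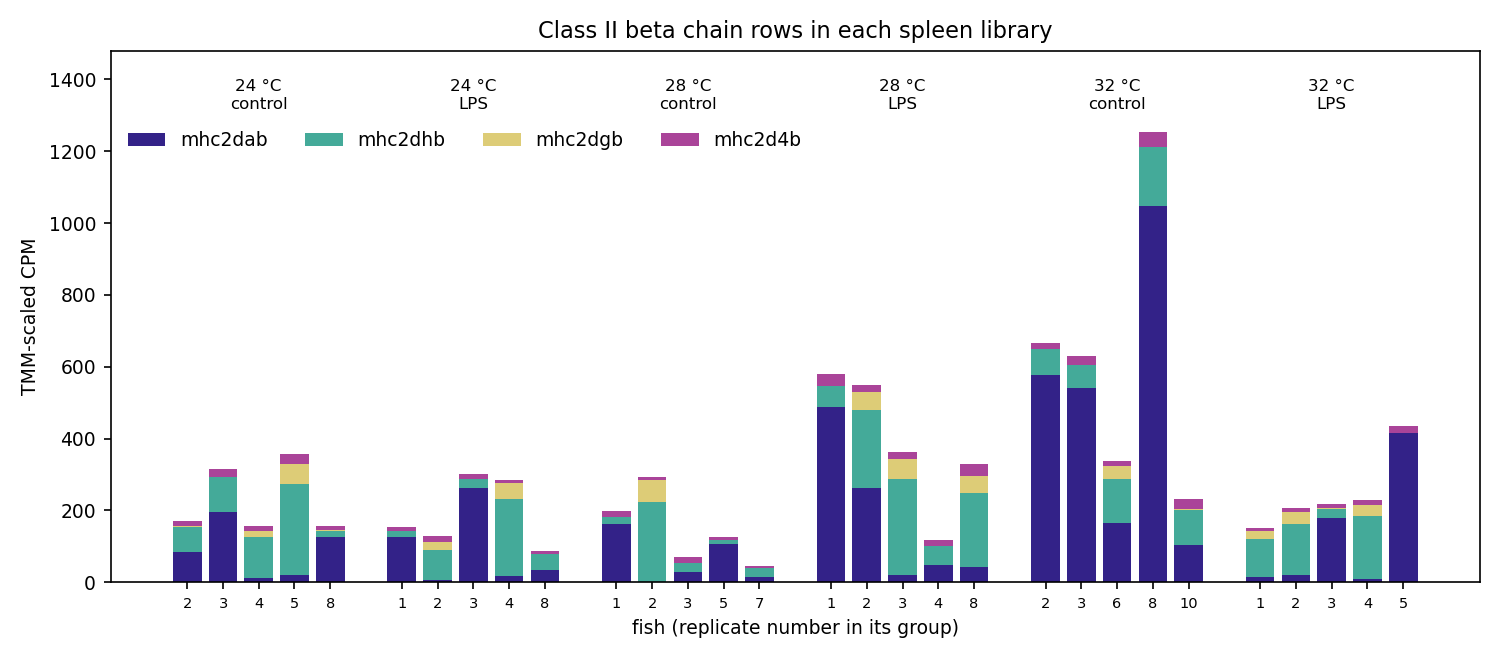
Stacked TMM-scaled CPM of the beta rows mhc2dab, mhc2dhb, mhc2dgb and mhc2d4b in each of 30 spleen libraries, grouped by incubation temperature and treatment, with bars starting at 0. Fish of the same group differ in which row holds most of the bar, and the tallest bar, 32 °C control replicate 8, is mostly mhc2dab at 1048 CPM.

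Summed over the 8 beta rows, the range narrowed to 45.2 to 1254 CPM. On the scale of log2(CPM + 1), the SD within groups was 0.83 for the sum and 2.11 for mhc2dab alone. Mean summed beta chain CPM were 625 ± 398 in 32 °C controls, 389 ± 187 in 28 °C LPS fish, 249 ± 109 in 32 °C LPS fish, 231 ± 96.8 in 24 °C controls, 191 ± 97.0 in 24 °C LPS fish and 147 ± 100.9 in 28 °C controls (SD, n = 5 each). The 7 alpha rows summed to 502 ± 223, 334 ± 145, 225 ± 66.6, 277 ± 95.0, 202 ± 61.6 and 119 ± 80.7 CPM in the same groups. Both sums were highest in 32 °C controls, second in 28 °C LPS fish and lowest in 28 °C controls. The sums were not tested.

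The first comparison asked how LPS fish differed from controls of the same incubation temperature. In bulk tissue, fewer cells of a type and less RNA per cell cannot be told apart, here and in every result that follows. At 28 °C the log2 fold change was 1.3 ± 0.37 for cd74a (SE), 1.21 ± 0.35 for cd74b, 1.18 ± 0.33 for ciita, 1.63 ± 0.41 for mhc2daa and 1.45 ± 1.22 for mhc2dab. No member passed edgeR's quasi-likelihood test with Benjamini-Hochberg adjustment over all genes at 28 °C (adjusted p = 0.321, 0.324, 0.318 and 0.755 for cd74a, cd74b, ciita and mhc2dab). Over all genes, 0.0112% were called there. Unadjusted p were 0.00144, 0.0016 and 0.00119 for cd74a, cd74b and ciita. For these 3 the groups did not overlap, which held for 0.701% of all genes in the same direction. DESeq2 called mhc2daa at 28 °C (1.61, adjusted p = 0.0249), among 69 genes in all.

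At 32 °C the log2 fold changes were below 0, at −1.83 ± 0.37 for cd74a, −1.49 ± 0.35 for cd74b, −0.81 ± 0.32 for ciita, −1.23 ± 0.41 for mhc2daa and −1.93 ± 1.24 for mhc2dab. Adjusted p by the same edgeR test were 0.159, 0.434, 0.559, 0.507 and 0.765, so none was called, against 0.00561% of all genes. The unadjusted p was 3.57e-05 for cd74a and 0.000198 for cd74b. Of the members, cd74a alone did not overlap, which held for 0.824% of all genes in that direction. DESeq2 called cd74a (−1.81, adjusted p = 0.00188) and cd74b (−1.47, adjusted p = 0.0335), among 16 genes in all. The edgeR test called cd74a without 32 °C control replicate 6 (−1.98, adjusted p = 0.0335). Leaving out the 3 libraries gave fold changes of −1.24 for cd74a and −0.99 for cd74b.

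At 24 °C the log2 fold changes were −0.68 ± 0.36 for cd74a, −0.40 ± 0.34 for cd74b, −0.55 ± 0.32 for ciita, −0.48 ± 0.40 for mhc2daa and 0.03 ± 1.2 for mhc2dab. None was called (edgeR adjusted p from 0.338 to 0.994), with 0.0168% of all genes called. Averaged over the temperatures the changes were −0.40 ± 0.21, −0.23 ± 0.20, −0.06 ± 0.19 and −0.15 ± 0.69 for cd74a, cd74b, ciita and mhc2dab, and −0.03 ± 0.23 for mhc2daa. None was called on average, against 0.0112% of all genes.

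**Figure D3:**
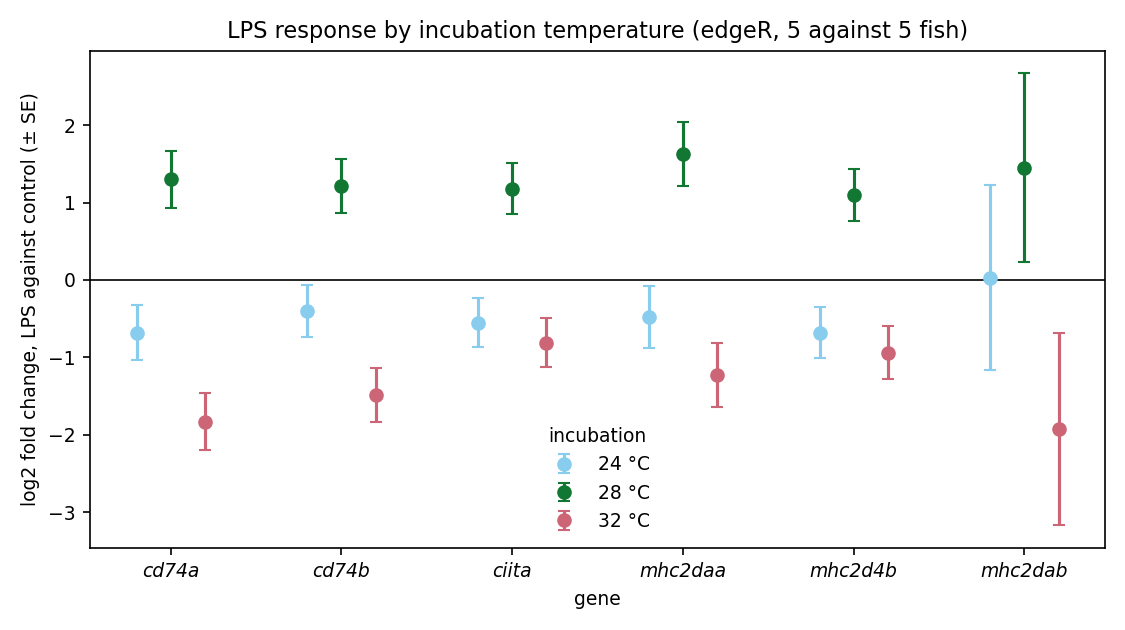
Log2 fold change of LPS fish against controls (edgeR, ± SE, 5 against 5 fish) for cd74a, cd74b, ciita, mhc2daa, mhc2d4b and mhc2dab, coloured by incubation temperature. At 28 °C all 6 points lie above 0 and at 32 °C all 6 lie below 0, with long error bars for mhc2dab. None of the single points passed the adjusted test. Not all class II rows went this way. Of the 7 tested beside the members, mhc2daa and mhc2d4b among them, 1 lay below 0 at 28 °C (mhc2d8.37a2, −1.49 ± 1.37). At 32 °C 2 of the 7 lay above 0 (mhc2dga, 1.38 ± 2.21, and mhc2dgb, 1.22 ± 2.03).

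The next comparison tested whether the LPS response itself depended on incubation temperature. The response was lower at 32 °C than at 28 °C for both invariant chain copies. The difference of log2 fold changes, 32 minus 28 °C, was −3.13 ± 0.52 for cd74a (SE, edgeR adjusted p = 0.0154) and −2.70 ± 0.49 for cd74b (adjusted p = 0.0159). The alpha chain mhc2daa also passed, at −2.86 ± 0.58 (adjusted p = 0.0388). For ciita the difference was −1.99 ± 0.46 (adjusted p = 0.0764) and for mhc2dab −3.38 ± 1.74 (adjusted p = 0.532). Of the 7 other class II rows tested, 6 lay below 0 and 1 above. Thus 2 of 4 members were called lower, against 0.0897% of all genes called lower. The members were chosen with earlier results of these data known, so this contrast is not a test of them as a set. The 2 called, cd74a and cd74b, varied closely together over the fish (Pearson r = 0.972) and are not separate results. The beta row mhc2d4b was at −2.04 ± 0.48 (adjusted p = 0.0764), and was called by DESeq2 (−2.0, adjusted p = 0.00965) and by edgeR without 32 °C control replicate 6 (−2.1, adjusted p = 0.0477).

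The call of cd74a held in each leave-out of a library and in a fit lacking those 3 libraries (−2.54, adjusted p = 0.0376). It did not hold in an edgeR fit of only the groups compared (−3.04, adjusted p = 0.0631). The call of cd74b was lost in that fit (−2.60, adjusted p = 0.0631), without the 3 libraries (−2.2, adjusted p = 0.0904), and without 28 °C control replicate 3 (−2.50), 28 °C control replicate 5 (−2.49) or 32 °C LPS replicate 5 (−2.58). For ciita the difference was called by DESeq2 (−1.95, adjusted p = 0.00965), and by edgeR without 32 °C control replicate 6 (−2.1, adjusted p = 0.0286) or 32 °C LPS replicate 4 (−2.24, adjusted p = 0.0339). Over all genes DESeq2 called 146 in this comparison, against 20 with edgeR. The call of mhc2daa was lost without the 3 libraries (−2.38, adjusted p = 0.151), in the fit of only the groups compared (−2.77, adjusted p = 0.207), with no filter on low counts (−2.82, adjusted p = 0.0714) and in 19 of 30 leave-outs of 1 library.

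Between 24 and 28 °C the responses differed by −1.98 ± 0.52 for cd74a (edgeR adjusted p = 0.0594), −1.61 ± 0.48 for cd74b (adjusted p = 0.0814), −1.73 ± 0.46 for ciita (adjusted p = 0.06), −2.11 ± 0.57 for mhc2daa (adjusted p = 0.0627) and −1.42 ± 1.71 for mhc2dab (adjusted p = 0.669). None was called, against 0.751% of all genes in either direction. Over all genes DESeq2 called 788 here, against 134 with edgeR, and the count of limma voom is not given. DESeq2 called 3 members, and so did limma voom: cd74a, cd74b and ciita. Both also called mhc2daa (−2.08, adjusted p = 0.014, and −2.47, adjusted p = 0.0225), as did edgeR without 28 °C control replicate 1 (−2.27). edgeR called cd74a when those 3 libraries were left out (−2.14, adjusted p = 0.0471). It was also called without 24 °C control replicate 8 (−2.14), 32 °C control replicate 6 (−1.85) or 32 °C control replicate 8 (−1.98), and ciita without 32 °C control replicate 6 (−1.61). This comparison and the one above share the 28 °C fish.

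Between 32 and 24 °C the responses differed by −1.15 ± 0.51 for cd74a, −1.09 ± 0.48 for cd74b, −0.26 ± 0.46 for ciita and −1.96 ± 1.71 for mhc2dab. None was called (edgeR adjusted p = 0.479, 0.479, 0.88 and 0.721), against 0.0224% of all genes. The joint test of any difference between the 3 temperatures called cd74a (edgeR adjusted p = 0.0249) and cd74b (adjusted p = 0.0307), as it did 0.364% of all genes, and gave adjusted p = 0.0615 for ciita and 0.469 for mhc2dab. That count of 2 members fell to 0 without 28 °C control replicate 7 or 28 °C LPS replicate 1, and to 1 without 28 °C control replicate 3 or 5, without 28 °C LPS replicate 3, and without the 3 libraries.

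The comparison of control fish asked what incubation temperature left in adult spleens without LPS. At 32 against 28 °C the log2 fold change was 2.36 ± 0.38 for cd74a (edgeR adjusted p = 0.00613), 2.05 ± 0.35 for cd74b (adjusted p = 0.0114), 1.62 ± 0.33 for ciita (adjusted p = 0.0254) and 2.29 ± 0.42 for mhc2daa (adjusted p = 0.0162). For mhc2dab it was 2.95 ± 1.29 (adjusted p = 0.283). Of the 7 other class II rows tested, 4 lay above 0 and 3 below. Thus 3 of 4 members rose, against 0.42% of all genes called higher. The limits given above, on the choice of members and on the invariant chain copies, hold here too. The lowest 32 °C control lay above the highest 28 °C control for cd74a, cd74b and ciita, as for 1.63% of all genes.

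With those 3 libraries left out, none of these was called, at 1.77 for cd74a (adjusted p = 0.0543), 1.55 for cd74b (adjusted p = 0.0659), 1.32 for ciita (adjusted p = 0.14) and 1.81 for mhc2daa (adjusted p = 0.0883). Of the 5 fish at 32 °C, 2 are left out there. An edgeR fit of only the groups compared gave 2.39, 2.08, 1.64 and 2.32 with adjusted p of 0.112, 0.112, 0.124 and 0.112. The call of cd74a held in each leave-out of 1 library. That of cd74b was lost without 28 °C control replicate 3 (1.88), that of mhc2daa without 28 °C control replicate 3, 5 or 7, and that of ciita without 28 °C control replicate 2, 3, 5 or 7 or 32 °C control replicate 3 or 8 (1.33 to 1.72).

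At 24 against 28 °C in controls the fold changes were 0.94 ± 0.36 for cd74a, 0.94 ± 0.34 for cd74b, 0.67 ± 0.32 for ciita, 1.41 ± 0.41 for mhc2daa and 0.47 ± 1.2 for mhc2dab. None was called (edgeR adjusted p = 0.145, 0.123, 0.246, 0.0578 and 0.861), although 2.47% of all genes were. DESeq2, which called 895 genes there, called mhc2daa (1.38, adjusted p = 0.0206), and so did edgeR without 24 °C control replicate 8 (1.48, adjusted p = 0.0483). At 32 against 24 °C they were 1.42 ± 0.37, 1.1 ± 0.34, 0.95 ± 0.32 and 2.48 ± 1.27 for cd74a, cd74b, ciita and mhc2dab, with none called (edgeR adjusted p = 0.0938, 0.133, 0.162 and 0.340) and 0.0224% of all genes called. Over all genes DESeq2 called 283 there, against 4 with edgeR. DESeq2 called 1 member, cd74a (1.43, adjusted p = 0.0199), and so did edgeR without 24 °C control replicate 3 (1.69, adjusted p = 0.0465).

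Among LPS fish no member and no other gene was called between incubation temperatures by edgeR (0% of all genes). Unadjusted p under 0.05 were found for 709 genes higher and 885 lower at 24 against 28 °C, for 400 and 332 at 32 against 28 °C, and for 440 and 314 at 32 against 24 °C. DESeq2 called 15, 5 and 5 genes. The LPS fish at 24 °C were all below those at 28 °C for ciita, at a log2 fold change of −1.06 ± 0.33 (edgeR adjusted p = 0.545), as were 0.813% of all genes. The LPS fish at 32 °C were all below those at 28 °C for cd74a, as were 0.303% of all genes. Their log2 fold change was −0.77 ± 0.36 for cd74a, −0.64 ± 0.34 for cd74b, −0.37 ± 0.32 for ciita and −0.43 ± 1.2 for mhc2dab. The response difference at 32 minus 28 °C subtracts from these the control difference (2.36, 2.05, 1.62 and 2.95). Control and response results, here and in the lists below, are therefore not independent.

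The members were then compared with each other in the same fish. Over 30 fish, log2 CPM of cd74a and cd74b had a Pearson r of 0.972 (permutation p = 1e-05, the smallest the permutations can give, adjusted p = 2e-05 over 6 pairs) and a Spearman rho of 0.956. Without the 2 fish farthest from the median of cd74a, r was 0.959, and on deviations from group means it was 0.953. The log2 ratio of cd74a to cd74b ran from 0.05 to 1.23 over all fish with an SD of 0.23, against an SD of 0.92 for log2 CPM of cd74a. The ratio of the invariant chain copies thus varied less from fish to fish than either level.

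For cd74a and ciita, r was 0.764 (adjusted permutation p = 2e-05) and rho 0.703, with 0.629 without the 2 farthest fish and 0.488 on deviations from group means. For cd74b and ciita, r was 0.739 (adjusted permutation p = 2e-05) and rho 0.673, with 0.643 and 0.489. Relations with mhc2dab were weaker, with r of 0.496 for cd74a (adjusted permutation p = 0.00921, rho 0.53), 0.463 for cd74b (0.012, rho 0.498) and 0.44 for ciita (0.015, rho 0.451). Without the 2 farthest fish r fell to 0.353, 0.31 and 0.278, although rho, which depends less on extreme fish, was not below r. On deviations from group means r was 0.161, 0.113 and 0.156, so these relations lay mostly in differences between groups.

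**Figure D4:**
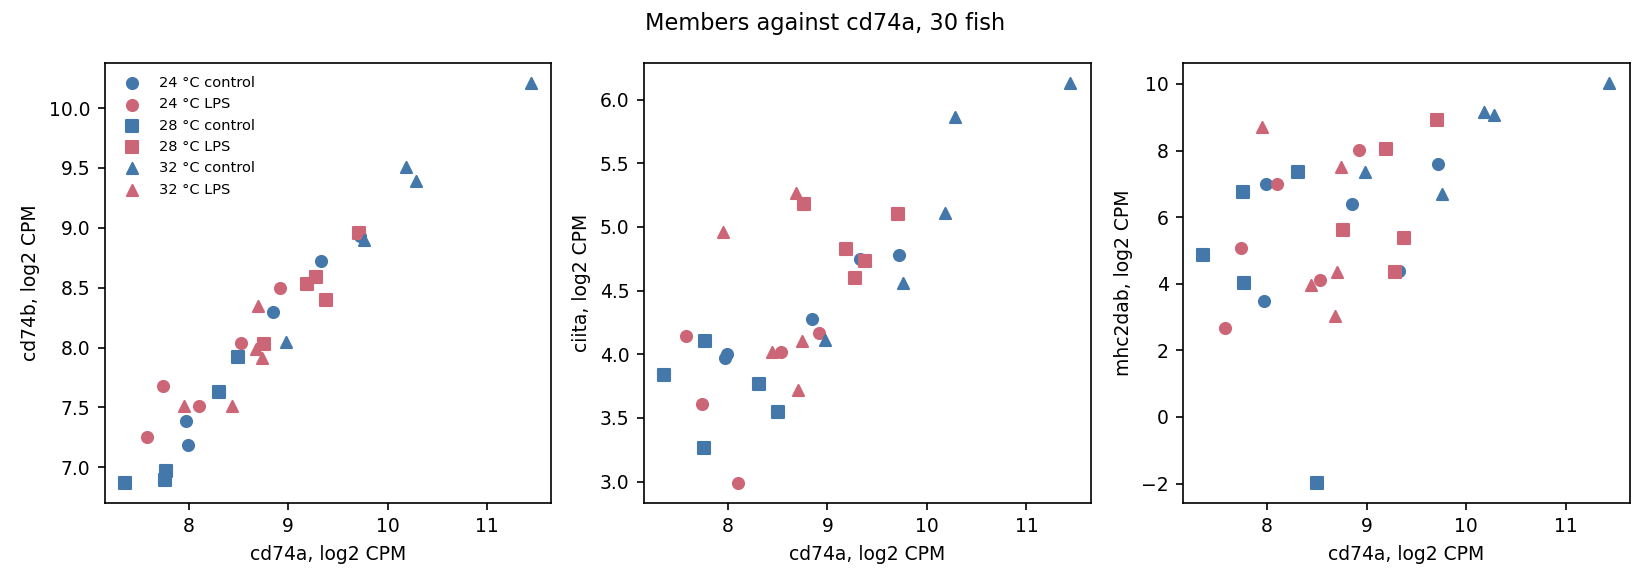
Log2 CPM (prior count 2) of cd74b, ciita and mhc2dab, each against cd74a, in 30 fish. Colour marks treatment (blue control, red LPS) and shape incubation temperature (circle 24 °C, square 28 °C, triangle 32 °C). The points of cd74b lie close to a line (r = 0.972), those of ciita less so (r = 0.764), and mhc2dab scatters widely at a given level of cd74a.

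Ratios within a fish were compared between LPS and control fish by two-sided exact permutation tests over all splits of 10 fish, whose smallest p is 0.00794. Over 12 tests none passed the adjustment. At that smallest p a ratio could not pass alone, so these tests do not show that the ratios were unchanged. The log2 ratio of cd74a to cd74b differed, LPS minus control, by −0.29 at 24 °C (p = 0.0238, exact, adjusted p = 0.286), and the differences were 0.08 at 28 °C and −0.27 at 32 °C. The log2 ratio of cd74a to ciita differed by −0.89 at 32 °C (exact permutation p = 0.0556, adjusted p = 0.333), by 0.14 at 28 °C and by −0.03 at 24 °C. The ratio of cd74a to mhc2daa differed by −0.15, −0.37 and −0.47 at 24, 28 and 32 °C. The ratio of mhc2daa to mhc2dab differed by −0.06, −0.56 and 1.81.

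The genes with the pattern most like the members over the 30 fish were found by Pearson r of log2 CPM, as a description. For cd74a they were ANK3 (ENSDARG00000061736), an ankyrin, at 0.83, mhc2daa at 0.818, bpifcl at 0.815, zgc:123107 at 0.812 and ms4a17a.10, of the MS4A membrane protein family, at 0.811. For cd74b they were mhc2daa at 0.873, zgc:123107 at 0.87, ANK3 at 0.832, shtn2 at 0.81 and ms4a17a.10 at 0.806. For ciita ms4a17a.10 led at 0.831, followed by ASB13 (ENSDARG00000079698) at 0.826 and si:dkey-65b12.13 at 0.805. For mhc2dab si:dkey-56m15.2 led at 0.769, and mhc2bl, a class II beta-like row, was at 0.729. The row mhc2bl was near the floor, with no count in 14 libraries, below 1 CPM in 28 and at most 1.61 CPM. Against the mean of the 4 members, ms4a17a.10 was at 0.862, mhc2daa at 0.826, ifi30a, a thiol reductase of endosomes that opens antigens for class II, at 0.781, and mhc2d4b at 0.778. In controls ifi30a rose at 32 against 28 °C, at 1.63 ± 0.30 (edgeR adjusted p = 0.0162). As this gene was picked by its likeness to the members over the same fish, the call is not a separate result. It was not called with those 3 libraries left out (1.38) nor without 28 °C control replicate 3 (1.65) or 7 (1.51).

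Other genes of the pathway were taken from lists. Of 14 tested genes of class II transcription, none was called in any of the LPS comparisons, the response differences or the control comparisons at 32 or 24 against 28 °C. Their median log2 fold change was 0.03 at 28 °C and −0.06 at 32 °C with LPS, against 0.02 and −0.02 over all genes. In 32 against 28 °C controls, where ciita was at 1.62, rfx5 was at 0.02, RFXAP (ENSDARG00000076891) at 0.11 and RFXANK (ENSDARG00000016730) at 0.22, the 3 subunits of the RFX complex that ciita binds in mammals. Their response differences between 32 and 28 °C were −0.29, −0.43 and −0.35, against −1.99 for ciita. The most abundant of the list were SPI1 (ENSDARG00000000767) and spi1a, myeloid transcription factors, at 0.01 and −0.29 in the same control comparison.

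Of 34 tested genes of MHC class I presentation none was called in these comparisons, with median log2 fold changes of −0.21 at 28 °C and −0.11 at 32 °C with LPS, and a median of 0.02 for the response difference between 32 and 28 °C. In 32 against 28 °C controls 25 of the 34 lay below 0, with a median of −0.35 against 0.03 over all genes. The class I light chains b2ml and b2m were at −0.14 and 0.12 at 28 °C and at −0.34 and −0.38 at 32 °C with LPS. Neither cd40, cd83 nor the other 2 tested genes of costimulation were called.

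Of 16 tested genes of endosomal processing, none was called in the LPS comparisons at 28 and 32 °C or in the response difference between 32 and 28 °C. LGMN (ENSDARG00000039150), legumain, an asparaginyl protease of lysosomes, was the called gene in 2 other comparisons. It fell in controls at 24 against 28 °C, from 1694 ± 767 to 728 ± 276 CPM (SD, n = 5 each), at −1.22 ± 0.32 (edgeR adjusted p = 0.0398). Its LPS response was higher at 24 than at 28 °C by 1.86 ± 0.45 (adjusted p = 0.0468), where the members' differences were all below 0. Both calls were lost without the 3 libraries (−1.07 and 1.71). Leaving out 1 library ended the call in controls in 5 of 30 fits and the response call in 17 of 30. Of the tested copies of the protease cathepsin S, ctss2.1 was at 0.04 and −0.25 with LPS at 28 and 32 °C. The copy ctss2.2 was at 0.13 and −0.86, and ctss1 at −0.55 and 1.4.

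**Figure D5:**
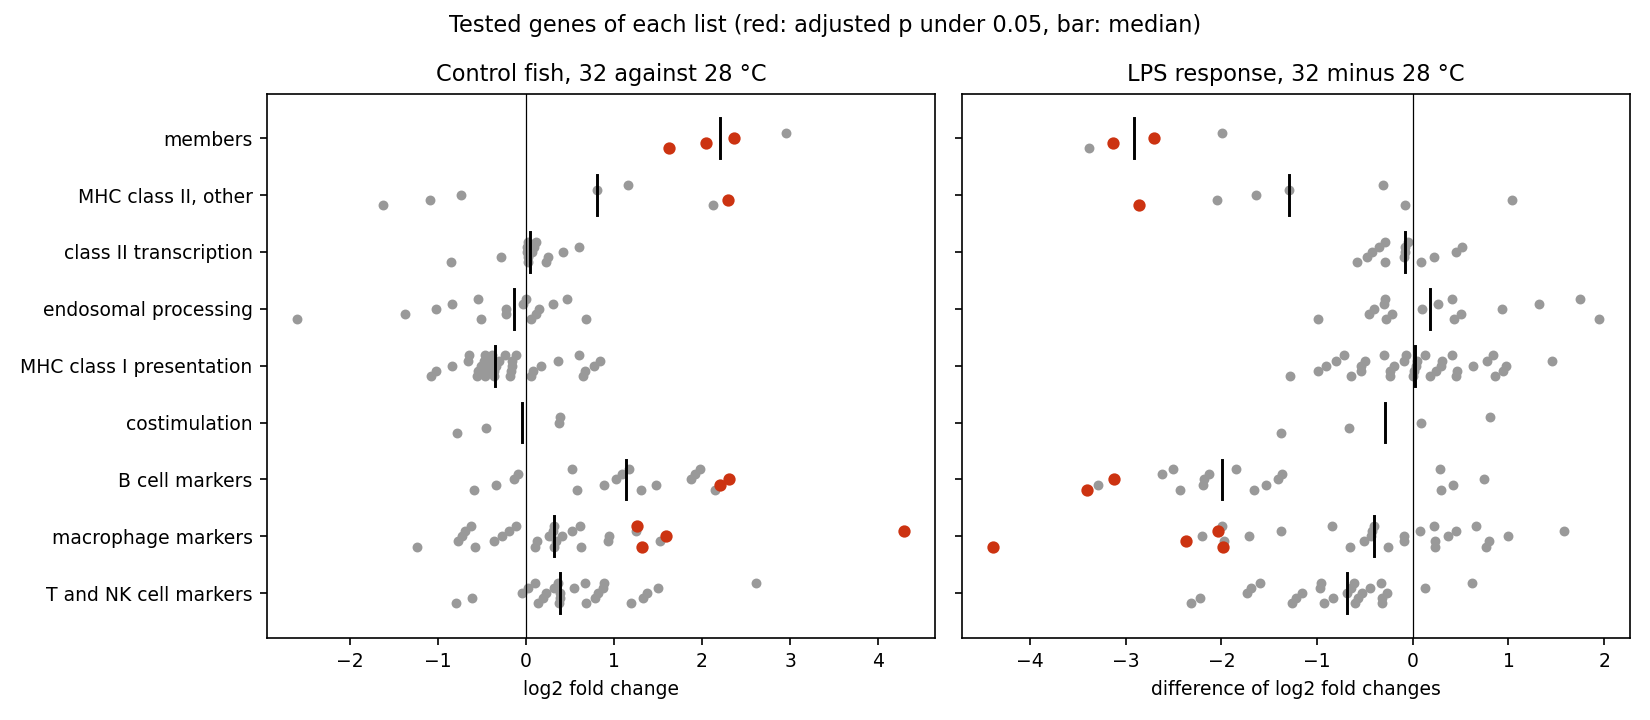
Log2 fold change of 32 against 28 °C controls (left) and difference of the LPS response between 32 and 28 °C (right) for every tested gene of the members, of other class II rows and of 7 further lists. Red points had an adjusted p under 0.05 in edgeR and black bars are list medians. Both panels hold the same control fish. The members, most B cell and most T and NK cell markers and several macrophage markers lie to the right of 0 on the left panel and to the left on the right panel. The class II transcription list has medians of 0.05 and −0.09, and the class I list of −0.35 and 0.02.

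Marker lists of spleen cell types were set beside the members. Of 18 tested B cell markers, 2 were called in 32 against 28 °C controls: cd79a, a signalling chain of the B cell receptor, at 2.31 ± 0.43 (edgeR adjusted p = 0.0168), and ighm, the IgM heavy chain, at 2.2 ± 0.46 (adjusted p = 0.0284). Means of cd79a were 3.37 ± 1.92 CPM in 28 °C controls, 12.0 ± 4.72 in 28 °C LPS fish, 16.9 ± 6.30 in 32 °C controls and 5.64 ± 2.96 in 32 °C LPS fish (SD, n = 5 each). Over all genes, 0.42% were called higher in this control comparison. Both genes were also called lower for the LPS response at 32 minus 28 °C, as were 0.0897% of all genes. That comparison shares these control fish. The differences were −3.40 ± 0.60 for cd79a (edgeR adjusted p = 0.0159) and −3.12 ± 0.64 for ighm (adjusted p = 0.0396). With LPS, 14 of the 18 lay above 0 at 28 °C (median 0.61) and 17 below 0 at 32 °C (median −1.09). The medians of all genes were 0.02 and −0.02. Without the 3 libraries neither gene was called in 32 against 28 °C controls (2.18 and 2.57), and cd79a was not called in the response difference (−3.27). The response call of ighm was lost in 20 of 30 leave-outs of 1 library and in 4 of 9 other settings (adjusted p up to 0.23), against 0 of 30 and 2 of 9 for cd79a. In controls the call was lost in 5 of 30 leave-outs for ighm and 3 of 30 for cd79a.

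The summed level of the B cell markers overlapped between all 6 groups, at 455 to 618 CPM in 24 °C controls, 585 to 744 in 24 °C LPS, 494 to 747 in 28 °C controls, 257 to 838 in 28 °C LPS, 521 to 936 in 32 °C controls and 238 to 745 CPM in 32 °C LPS fish. These sums are without TMM. The lowest, in replicate 4 of the 28 °C LPS and of the 32 °C LPS fish, came from the libraries of lowest TMM factor (0.730 and 0.708). TMM scaling would raise them. No B cell marker of the list was at 0 throughout a group. Of 29 tested macrophage markers, 4 were called higher in 32 against 28 °C controls, against 0.42% of all genes. The same 4 were called lower for the response at 32 minus 28 °C, against 0.0897% of all genes. These 2 comparisons share the control fish. They were the complement C1q chains c1qa (1.59 ± 0.33 and −2.37 ± 0.46), c1qb (1.32 ± 0.25 and −1.98 ± 0.35) and c1qc (1.26 ± 0.25 and −2.03 ± 0.35), and apoeb, an apolipoprotein E (4.30 ± 0.69 and −4.39 ± 0.89). Without the 3 libraries c1qa was called in neither comparison (1.54 and −2.32), c1qb and c1qc not in controls (1.34 and 1.24), and apoeb not in the response (−3.76). Leaving out 1 library ended the response call of apoeb in 19 of 30 fits, that of c1qa in 12, that of c1qb in 6 and that of c1qc in 0. In controls it ended the call in 6 of 30 fits for c1qa, 5 each for c1qb and c1qc, and 0 for apoeb. In a fit of only the groups compared none of the 4 was called in either comparison (adjusted p from 0.0631 to 0.218). Of the 29 macrophage markers, 10 lay below 0 in controls and 11 above 0 for the response. The list's medians were 0.32 and −0.40 in these comparisons, against 0.03 and −0.05 over all genes. Its summed level ran from 4978 to 10134 CPM in 28 °C controls, 2999 to 10015 in 28 °C LPS, 4124 to 10265 in 32 °C controls and 3336 to 8968 in 32 °C LPS fish. Of 25 tested T and NK cell markers none was called in either comparison, with 22 above 0 in 32 against 28 °C controls (median 0.39) and 23 below 0 for the response at 32 minus 28 °C (median −0.69). With LPS, 21 of the 25 lay above 0 at 28 °C (median 0.31) and 22 below 0 at 32 °C (median −0.52). Their summed level overlapped between groups, at 107 to 215 CPM in 28 °C controls, 95.1 to 238 in 28 °C LPS, 162 to 240.2 in 32 °C controls and 50.4 to 285 CPM in 32 °C LPS fish. Of 14 tested dendritic cell markers none was called either, with 9 above 0 in controls (median 0.41) and 9 below 0 for the response (median −0.23). Neutrophil markers lay the other way in 32 against 28 °C controls, with 11 of 12 below 0, a median of −1.02 and 1 called, cxcr1, a chemokine receptor, at −3.50 ± 0.62 (edgeR adjusted p = 0.0146). Over all genes, 0.213% were called lower there. Without the 3 libraries cxcr1 was at −3.64 and not called. The part of B cell, macrophage and T cell content in the members' results was not tested.

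Acinar pancreas markers differed between libraries too, and summed to 255 to 69556 CPM over the 30. They summed to 38746 CPM in 28 °C control replicate 7 and to 59287 CPM in 28 °C LPS replicate 8. The fits without the 3 libraries that stood apart keep both of these. All 25 acinar markers lay below 0 for the LPS response at 32 minus 28 °C, with a median of −2.11, and none was called. Liver markers had medians of 4.88 in 32 against 28 °C controls and −3.95 for the response difference, with none of 22 called higher or lower. The liver sum was 6399 CPM in 32 °C control replicate 8 but 442, 293, 778 and 271 CPM in replicates 2, 3, 6 and 10. In 28 °C controls it ran from 388 to 1043 CPM. The acinar sum in 32 °C controls ran from 958 to 28023 CPM, and in 32 °C LPS fish from 255 to 15761 CPM. The part of neighbouring tissue in the members' results was not tested.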

How the data were processed

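Spleen RNA of 30 zebrafish was sequenced from poly(A)-selected, directional libraries, per the labels' protocols. The submitters' processing notes name the GRCz11 build and list STAR, FastQC 0.11.5, cutadapt 1.12, bcl2fastq and, in version 1.11.1, DESeq2. Which program counted reads, with which annotation and strand setting, is not given in the sources used. The values deposited by the authors are whole-number counts per gene, not normalised, for 31901 Ensembl IDs, of which 29178 matched a symbol. No sequences were used here.

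In R 4.3.3, edgeR 4.0.16 filtered genes (filterByExpr), scaled libraries (TMM) and fitted 6 group means to all 30 libraries (robust quasi-likelihood, 24 residual degrees of freedom, common biological coefficient of variation 0.503). P-values were adjusted by Benjamini-Hochberg over 17841 genes, and an adjusted p under 0.05 was called. CPM are TMM-scaled. Log2 CPM used a prior count of 2. SEs are the log2 fold change over the square root of F. The code was tested on simulated data. Ratios and correlations used permutation tests (SciPy 1.17.1), with 100000 resamples for correlations. Planned ratios with mhc2a could not be made, and mhc2daa took its place after its values were seen.

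The members, the lists and the alternatives were chosen with earlier results of these data known. The result of 1 list is not reported here. Named genes were taken from the members and up to 4 called genes of each list and comparison, or otherwise its 2 most abundant. The genes of highest r were added. RFX subunits, mhc2dga, mhc2dgb, mhc2dhb, mhc2d4b and the cathepsin S copies were named after values were seen. The rule also gave genes called between 24 and 28 °C that are not described. They were the macrophage gene csf1rb, the neutrophil genes srgn and NCF1 (ENSDARG00000033735), the liver gene CP (ENSDARG00000010312) and the ovary genes zp3a.2, buc and ZAR1 (ENSDARG00000019706). Chi-square per degree of freedom was at least 31.7 in each of 60 pairs of libraries of 1 group. No library was therefore a second sequencing of another in its group. This cannot show that the libraries came from separate fish. As alternatives, scaling used DESeq2 size factors or TMM without erythroid genes, with no filter or a filter of 1 CPM in 5 libraries. Others were DESeq2 1.42.0, limma 3.58.1 voom, a prior count of 0.5, fits of only the groups compared, the replicate number as a block, leaving out each library, and leaving out the 3 libraries that stood apart.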

Additional observations from a re-analysis of the deposited data

Results flagged for a closer look

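The difference of the LPS response between 32 and 28 °C, itself tested with edgeR's quasi-likelihood test, stood out for cd74a (−3.13, adjusted p = 0.0154), cd74b (−2.70, adjusted p = 0.0159) and mhc2daa (−2.86, adjusted p = 0.0388). LPS fish of all 3 genes had higher means than controls at 28 °C and lower means at 32 °C. The beta row mhc2dhb was at 222.7 CPM in 28 °C control replicate 2, while the other 4 fish of that group lay between 10.2 and 24.1, a gap of 0.935 of the group's range where 0.71 is the critical value. The same fish had the lowest mhc2dab (0.151 CPM) and the highest mhc2dga (81.4 CPM) of the 30. Of 42 combinations of a gene and a group examined for such a fish 1 held one. Chance alone gives about 1 in 20, so this was no more than chance would give.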

How the results depend on the processing

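No scaling or filter alternative changed the number of members called in a comparison. Replicate numbers were not shown to pair fish. Over 9 same-numbered pairs within a temperature, r of deviations ran from −0.139 to 0.441, and 3 were over 0.1. In 3 of the pairs the best match of the LPS fish was the control of its own number. So few pairs cannot exclude a pairing. Under the replicate block 1 member was called for the response at 24 minus 28 °C (ciita, −1.75, against 0 without it), ciita joined the called members at 32 minus 28 °C (−2.66, adjusted p = 0.0355), and 3 members were called jointly. DESeq2 called 2 members for LPS at 32 °C (0 as reported), 3 for 24 minus 28 °C (0 as reported) and 1 for 32 against 24 °C controls (0 as reported), and limma voom called 3 for 24 minus 28 °C. Counts over all genes are given for DESeq2 only. Member counts of the other settings, here and below, stand without a share of all genes beside them and are not read against one. Over all genes DESeq2 called 274, 69 and 16 genes for LPS at 24, 28 and 32 °C against 3, 2 and 1 with edgeR, 788 against 134 and 146 against 20 for the response at 24 and at 32 minus 28 °C, 28 against 4 at 32 minus 24 °C, 494 against 65 jointly, and 895 against 440, 625 against 113 and 283 against 4 for controls at 24 against 28, 32 against 28 and 32 against 24 °C.

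Without the 3 libraries that stood apart, member counts were 1 for 24 minus 28 °C, 1 for 32 minus 28 °C (2 as reported), 1 jointly (2 as reported) and 0 for 32 against 28 °C controls (3 as reported), and r with mhc2dab was 0.332, 0.287 and 0.303 for cd74a, cd74b and ciita (adjusted permutation p = 0.135, 0.148 and 0.148). In fits of only the groups compared the counts were 2 for 24 minus 28 °C, 0 for 32 minus 28 °C and 0 for 32 against 28 °C controls. Leaving out 1 library gave counts of 0 to 1 for LPS at 32 °C, 0 to 2 for 24 minus 28 °C, 1 to 3 for 32 minus 28 °C, 0 to 3 jointly, 1 to 3 for 32 against 28 °C controls and 0 to 1 for 32 against 24 °C controls.

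Signs turned for values near 0. For mhc2dab with LPS at 24 °C (0.03), voom gave −0.62, the replicate block −0.52, the fit without the 3 libraries −0.26, and single leave-outs −0.84 to 0.62. For ciita at 32 minus 24 °C (−0.26), the fit without the 3 libraries gave 0.13 and single leave-outs −0.52 to 0.03. On average over temperatures, the fit without the 3 libraries gave 0.04 for mhc2dab (−0.15), 0.01 for ciita (−0.06) and 0.08 for mhc2daa (−0.03), and single leave-outs −0.54 to 0.12, −0.14 to 0.03 and −0.09 to 0.08. For mhc2dab in 24 against 28 °C controls (0.47) leave-outs gave −0.10 to 1.17. Leave-outs of the log2 ratios, LPS minus control, ran from −0.21 to 0.20 at 24 °C and −0.04 to 0.34 at 28 °C for cd74a to ciita, from −0.28 to 0.03 at 24 °C for cd74a to mhc2daa, and from −0.62 to 0.55 at 24 °C and −1.21 to 1.18 at 28 °C for mhc2daa to mhc2dab. The cause of these changes was not tested. Depth did not limit cd74a, cd74b or ciita. The lowest library of mhc2dab held 4 counts, but this library, 28 °C control replicate 2, was not shallow, at 21849630 counts in total.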
